A study of Homo sapiens with 13 samples.

Results

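The clustered protocadherins are cell surface adhesion proteins encoded by 3 gene clusters, alpha, beta and gamma, that lie in tandem on human chromosome 5. Members were all RefSeq coding genes on that chromosome with symbols beginning PCDHA, PCDHB, PCDHGA, PCDHGB or PCDHGC. This gave 53 of 19974 coding genes, with 15 in the alpha cluster, 16 in the beta cluster and 22 in the gamma cluster. The gamma cluster is made up of 12 PCDHGA, 7 PCDHGB and 3 PCDHGC genes. All 15 alpha genes end at the same base, and so do all 22 gamma genes, whereas the 16 beta genes have 16 separate ends. Each member was therefore taken at the start of its span, with 1 kb to both sides. Neighbouring starts lay at least 3374 bp apart, so no 2 windows overlapped and no peak was counted at 2 members.

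In alpha and gamma genes, each isoform has its own promoter and its own large first exon, called the variable exon, which is spliced to constant exons shared by the whole cluster. Beta genes have their own promoters and no shared constant exons. Neurons are known for switching on a few of these promoters per cell, which gives each neuron its own surface identity. Promoter choice is known to depend on CTCF and cohesin, which loop promoters to distant enhancers, and on DNA methylation at the promoters. The last isoforms of the alpha and gamma clusters, named C-type (PCDHAC1, PCDHAC2 and PCDHGC3 to PCDHGC5), are known to be used more constitutively in neurons than the others.

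The libraries came from PANC1, an established line from a human pancreatic ductal carcinoma, carrying a stable BRG1 expression construct (the titles read BRG oe). All groups share this construct, and no cells without it were profiled. CUT&RUN cuts out DNA beside an antibody-bound protein, and here it was run on mildly crosslinked cells with 2 replicates each of H3K4me3 (a promoter mark), H3K27ac (active promoters and enhancers), H3K4me1 (enhancers), BRG1 and SMARCC1 (chromatin remodeller subunits) and NRF2 (an antioxidant transcription factor). An IgG library was not analysed here, and the labels do not say whether the replicates were separate cultures or whether the line is 1 clone.

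Peak lists were long for the marks (17752 to 37283 peaks in a library) and short for the factors (572 to 6610). No read counts came with them, so the depth of each library is not known, and a start without a peak may still carry a mark too weak to be called. The treatment of reads that map to several paralogs is not known either, and its part in missing peaks was not tested. Marked and unmarked below mean only that a peak was or was not called. Of 8 ductal epithelial markers, 6 had H3K4me3 at an end of the gene in both replicates (the neighbours KRT8 and KRT18 with the same values), and KRT7 and CDH1 had no mark peak at either end in any library. Of 10 neuronal markers, 3 had it (SYT1, MAP2 and TUBB3), against 57.6% of all coding genes taken at either end.

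Promoters are shown here because a short element shared within each cluster places the members, and because marked and unmarked members can be compared by it. Sequences are from RefSeq on GRCh38.p14, from 250 bases before to 50 bases after the start of the gene, and 47 of the 53 members had an entry. PCDHA3, PCDHA13, PCDHB6, PCDHB11, PCDHGA12 and PCDHGC5 are named only. The first 3 below are the members with the highest mean H3K4me3, and the last 3 are the lowest-numbered member of each cluster without a mark peak. All lie on the plus strand of chromosome 5: PCDHB2 at chr5:141094365-141094664, PCDHGC3 at chr5:141475716-141476015, PCDHAC2 at chr5:140966226-140966525, PCDHA1 at chr5:140785890-140786189, PCDHB1 at chr5:141051124-141051423 and PCDHGA1 at chr5:141330264-141330563. Capitals mark the run of 10 letters held by the most promoters of that member's own cluster.
PCDHB2: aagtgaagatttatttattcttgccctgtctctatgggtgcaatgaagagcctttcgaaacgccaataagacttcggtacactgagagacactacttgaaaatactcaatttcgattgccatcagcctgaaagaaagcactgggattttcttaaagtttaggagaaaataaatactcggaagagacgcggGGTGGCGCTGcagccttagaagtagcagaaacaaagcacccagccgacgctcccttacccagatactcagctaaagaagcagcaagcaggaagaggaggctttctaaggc
PCDHGC3: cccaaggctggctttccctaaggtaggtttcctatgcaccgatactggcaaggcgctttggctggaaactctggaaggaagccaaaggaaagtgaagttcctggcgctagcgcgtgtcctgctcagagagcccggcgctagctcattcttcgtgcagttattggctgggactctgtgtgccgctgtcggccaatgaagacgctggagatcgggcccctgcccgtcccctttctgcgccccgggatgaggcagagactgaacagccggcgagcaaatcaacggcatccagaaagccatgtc
PCDHAC2: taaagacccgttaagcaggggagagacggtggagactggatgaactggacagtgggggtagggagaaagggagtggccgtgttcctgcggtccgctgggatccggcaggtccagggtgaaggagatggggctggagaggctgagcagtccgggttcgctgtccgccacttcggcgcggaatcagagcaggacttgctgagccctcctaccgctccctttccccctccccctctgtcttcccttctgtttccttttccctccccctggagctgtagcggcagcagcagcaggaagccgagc
PCDHA1: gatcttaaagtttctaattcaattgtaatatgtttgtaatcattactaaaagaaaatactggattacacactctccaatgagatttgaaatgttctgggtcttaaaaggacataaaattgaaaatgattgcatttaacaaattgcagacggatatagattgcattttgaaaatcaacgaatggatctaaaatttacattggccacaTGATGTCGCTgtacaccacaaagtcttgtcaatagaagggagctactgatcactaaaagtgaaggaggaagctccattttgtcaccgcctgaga
PCDHB1: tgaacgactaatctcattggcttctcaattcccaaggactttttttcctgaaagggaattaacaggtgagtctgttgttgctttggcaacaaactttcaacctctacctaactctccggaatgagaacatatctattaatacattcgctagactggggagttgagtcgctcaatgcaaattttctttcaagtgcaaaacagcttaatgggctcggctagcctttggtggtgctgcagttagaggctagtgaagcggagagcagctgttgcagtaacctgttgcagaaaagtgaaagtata
PCDHGA1: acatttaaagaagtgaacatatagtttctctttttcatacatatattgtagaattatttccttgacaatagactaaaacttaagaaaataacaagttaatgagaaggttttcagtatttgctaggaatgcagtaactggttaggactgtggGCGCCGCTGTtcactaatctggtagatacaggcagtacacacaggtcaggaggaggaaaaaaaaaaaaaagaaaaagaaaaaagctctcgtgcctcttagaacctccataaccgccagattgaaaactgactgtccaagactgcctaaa

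The 3 runs differ between clusters but each contains CGCT, known as the core of the conserved protocadherin promoter element. In the beta cluster the run GGTGGCGCTG stood in 12 of 14 promoters, on either strand, and in 55 of all 15812 coding promoters with an entry (0.348%). In the alpha cluster TGATGTCGCT stood in 8 of 13 promoters and in 9 of all coding promoters (0.0569%). In the gamma cluster GCGCCGCTGT stood in 9 of 20 promoters and in 28 of all coding promoters (0.177%). These runs were picked from the same promoters as the most frequent ones, so their frequency in the clusters is a description. The first base of the run lay at a median of 57.5 bp before the start in alpha, 65.5 bp in beta and 69 bp in gamma genes. The 4 letters CGCT alone, on either strand, were in 46 of 47 member promoters and in 81.0% of all coding promoters. The letters CCCTC, which give CTCF its name, were on either strand of 12 of 47 member promoters (0 of 14 beta promoters). They were in 76.5% of all coding promoters. The full CTCF site was not searched for, so these counts do not tell which promoters hold one.

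The exact run was found in marked and unmarked members alike. It stood in 3 of the 6 promoters with an H3K4me3 peak in both replicates, in both of those with a peak in 1 replicate, and in 24 of the 39 without an H3K4me3 peak (61.5%). Among the 6 members with H3K4me3 in both replicates, described next, PCDHA4, PCDHA12 and PCDHB2 held their cluster's run. PCDHGC3 was 1 letter away (C2T, counted from 1 at the 5′ end of the run, with the cluster's letter first), and so was PCDHGB7 (T8C). PCDHAC2 was 3 letters away at its closest. Of the unmarked members shown, PCDHA1 and PCDHGA1 held the exact run and PCDHB1 differed by C6T.

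Most clustered protocadherin starts had no called peak of any mark in PANC1. An H3K4me3 peak in both replicates was found at 6 of 53 starts (11.3%), against 59.2% of the 15818 coding genes compared at their 5′ end. H3K27ac in both replicates was found at 1 start (1.89%), against 44.7% of coding genes. Replicate 1 alone gave 1 H3K27ac start, against 46.8%, replicate 2 alone gave 2, against 47.9%, and either replicate gave 2, against 50%. At −log10 q of at least 1.3 in both replicates there were 0 H3K27ac starts, against 33.5%, and at 5 there were 0, against 5.99%. H3K4me1 was found at 0 starts in either replicate, against 6.73% of coding genes in either replicate and 3.65% in both. These shares would give only 3.57 and 1.93 genes among 53, so the H3K4me1 count does little to set the members apart. In all, 45 members (84.9%) had no peak of any mark in any library, against 35.3% of coding genes. They were 12 alpha, 14 beta and 19 gamma genes. No test was run on these counts, since the members are not replicates.

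**Figure D1:**
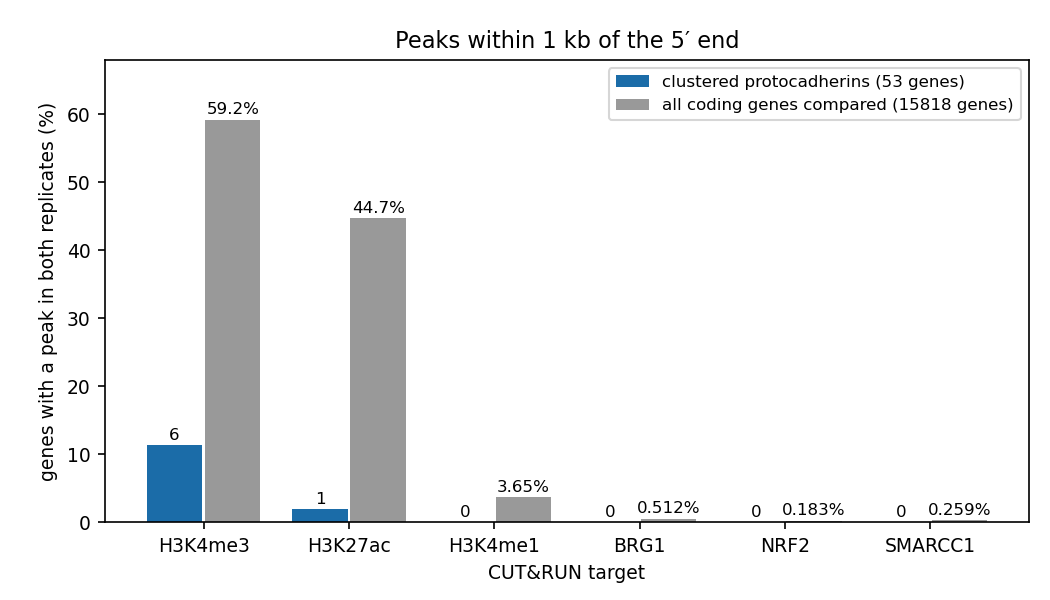
Share of genes with a peak in both replicates within 1 kb of the 5′ end (vertical axis, %) for each CUT&RUN target, with the 53 clustered protocadherins in blue (number of genes above the bar) and the 15818 coding genes compared in grey (share above the bar). The members lie below all coding genes for H3K4me3 (11.3% against 59.2%) and H3K27ac (1.89% against 44.7%).

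The 6 starts with H3K4me3 were spread over all 3 clusters. Alpha held 3 of 15 (PCDHA4, PCDHA12 and PCDHAC2), beta 1 of 16 (PCDHB2) and gamma 2 of 22 (PCDHGB7 and PCDHGC3). Each replicate by itself marked 7 of 53 starts, against 59.7% of coding genes in replicate 1 and 60.2% in replicate 2. A peak in either replicate was found at 8 starts, against 60.7%. PCDHB9 was marked in replicate 1 alone and PCDHGB1 in replicate 2 alone. With peaks of −log10 q of at least 1.3 in both replicates, 4 starts stayed marked (PCDHA4, PCDHAC2, PCDHB2 and PCDHGC3), against 58.4% of coding genes. With −log10 q of at least 5 there were 2 (PCDHB2 and PCDHGC3), against 54.6%. The fold enrichments that follow are the authors' own values for each peak, and each is the highest within 1 kb of the start.

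PCDHB2, a beta isoform whose span runs from 141094615 to 141098703, had the highest mean H3K4me3 of the 53. Its fold enrichment was 10.4 in replicate 1 and 7.03 in replicate 2, or 8.72 ± 2.39 (SD, n = 2). It was also the one member with H3K27ac in both replicates, at 3.19 and 2.74. The −log10 q of its H3K27ac peaks was only 0.96 and 0.47, while that of its H3K4me3 peaks was 16.2 and 11.7. The next beta gene on the chromosome, PCDHB3, with the same 10-letter run, had no peak in any library.

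PCDHGC3, the first C-type isoform of the gamma cluster, starting at 141475966, followed with H3K4me3 of 7.03 and 8.01, or 7.52 ± 0.691 (SD, n = 2). Its H3K27ac was called in replicate 2 alone, with a fold enrichment of 2.85. Its H3K4me3 values and those of PCDHB2 overlapped, so the order of these 2 members does not exceed the spread between replicates. The other gamma C-type isoforms, PCDHGC4 and PCDHGC5, had no peak in any library.

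PCDHAC2, the C-type isoform nearest the alpha constant exons, starting at 140966476, had H3K4me3 of 6.50 and 4.33, or 5.42 ± 1.53 (SD, n = 2). PCDHAC1, the other C-type isoform of that cluster, had no peak in any library. PCDHA4, an alternate alpha isoform starting at 140807068, had 4.41 and 4.28, or 4.35 ± 0.0925 (SD, n = 2). The values of PCDHA4 and PCDHAC2 overlapped, so these neighbours in the order are not separated.

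PCDHGB7, a gamma B isoform starting at 141417677, had 2.77 in replicate 1 and 4.60 in replicate 2, or 3.69 ± 1.3 (SD, n = 2). PCDHA12, starting at 140875308, had 3.76 and 2.68, or 3.22 ± 0.764 (SD, n = 2), the lowest mean of the 6. The values of PCDHGB7 and PCDHA12 overlapped, and in replicate 1 PCDHGB7 was the lower. Each had 1 replicate with a low −log10 q, 0.79 in replicate 1 for PCDHGB7 and 0.785 in replicate 2 for PCDHA12. A lncRNA, LOC112267934, overlaps the marked region at PCDHA12, so that the 2 genes cannot be told apart there.

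Of the starts marked once, PCDHB9 reached a fold enrichment of 3.57 in replicate 1 and PCDHGB1 4.81 in replicate 2. The value of PCDHGB1 was above both values of PCDHA4 and PCDHA12, although these had a peak in both replicates.

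**Figure D2:**
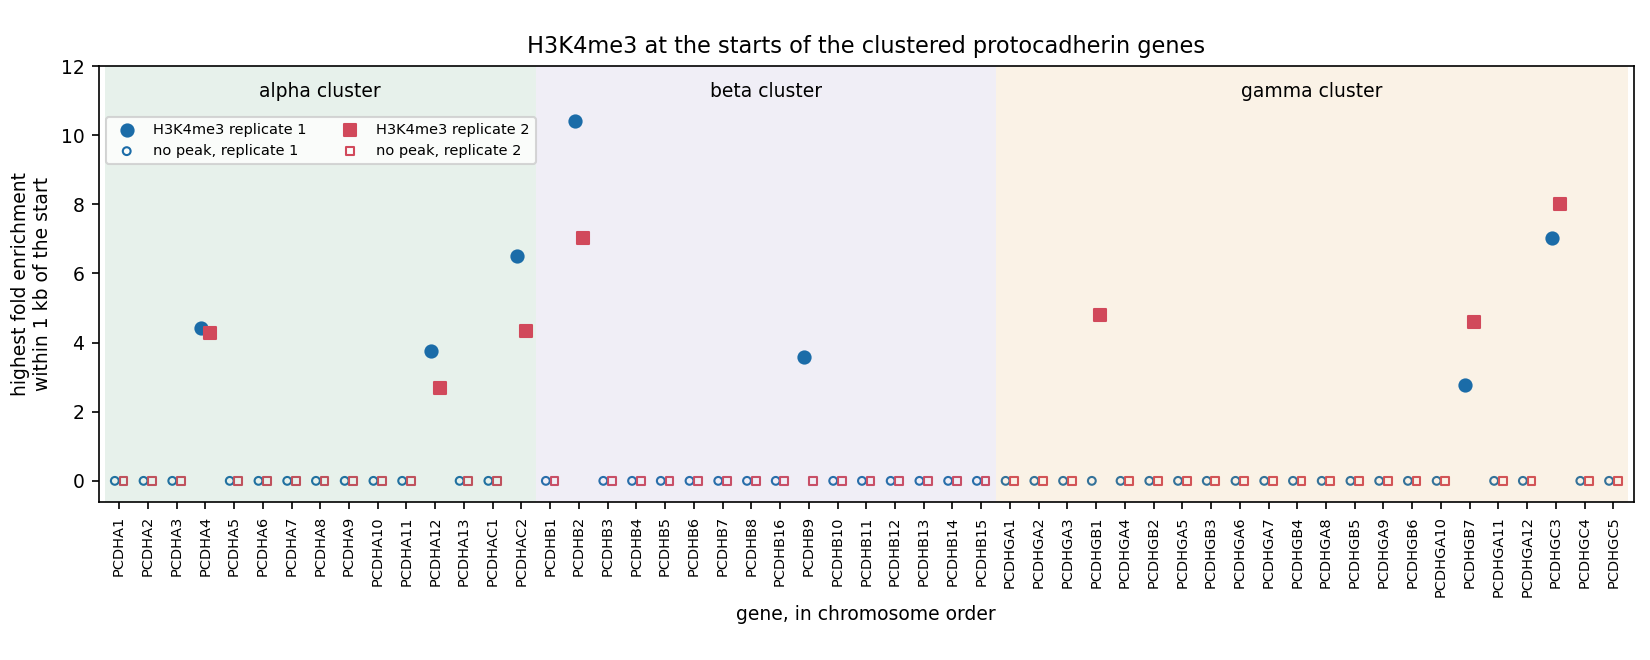
Highest H3K4me3 fold enrichment within 1 kb of the start (vertical axis) of each of the 53 genes in chromosome order (horizontal axis), circles for replicate 1 and squares for replicate 2. Open symbols at 0 mean that no peak was called. By their means, the 6 genes with filled symbols of both replicates run from PCDHA12 (3.76 and 2.68) to PCDHB2 (10.4 and 7.03), and PCDHB9 and PCDHGB1 have 1 filled symbol each.

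Beside other marked promoters, the H3K4me3 of these 6 members was weak and narrow. The 9367 coding genes with H3K4me3 in both replicates had a median fold enrichment of 15.9, and the middle part of the distribution ran from 10.2 (lower quartile) to 22.6 (upper quartile). PCDHB2 was above 19.1% of these genes, PCDHGC3 above 14.9%, PCDHAC2 above 7.17% and PCDHA4 above 3.56%. PCDHGB7 was above 1.55% and PCDHA12 above 0.480%. All 6 thus lay below the lower quartile. The widest H3K4me3 peak at the start, averaged over both replicates, was 908.5 bp at PCDHGC3, 897 bp at PCDHB2, 557 bp at PCDHAC2, 370 bp at PCDHGB7, 270.5 bp at PCDHA12 and 207.5 bp at PCDHA4. The median over the marked coding genes was 1650 bp.

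**Figure D3:**
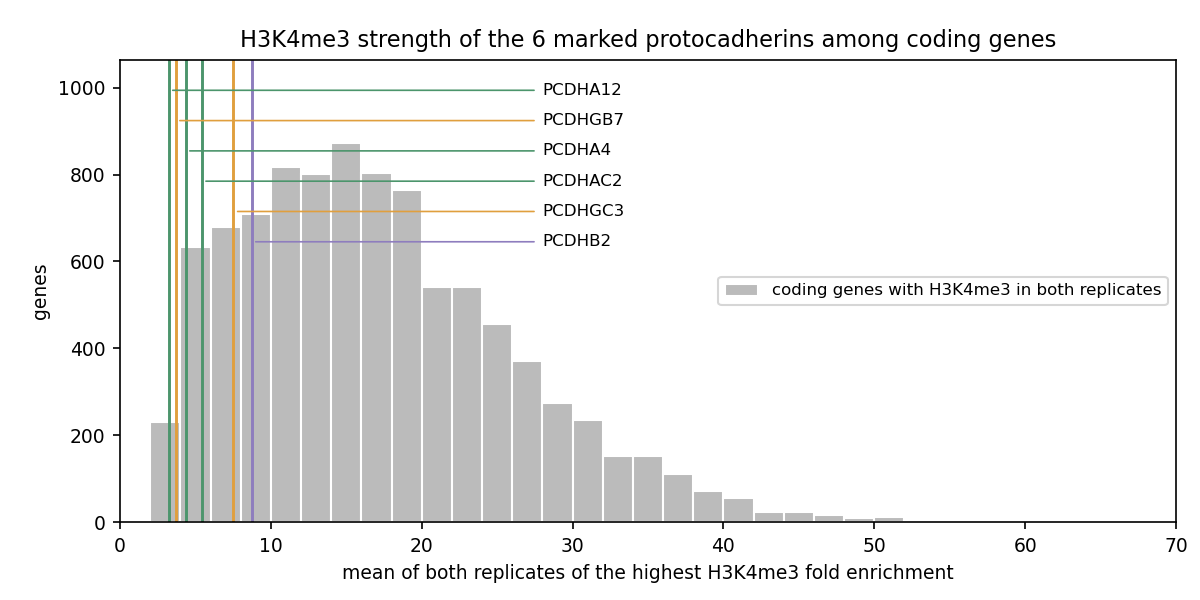
Number of coding genes (vertical axis) by H3K4me3 fold enrichment, averaged over both replicates (horizontal axis, bins of 2), among the 9367 genes marked in both. Vertical lines place the 6 protocadherins, green for alpha, purple for beta and orange for gamma, from 3.22 for PCDHA12 to 8.72 for PCDHB2, all left of the lower quartile of 10.2.

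The peaks lay on the transcribed side of the start. At PCDHA4, PCDHA12, PCDHB2, PCDHGB7 and PCDHGC3, every H3K4me3 peak of both replicates began at or after the first base of the gene. This is 5 of the 6 members, against 10.7% of the marked coding genes. That share is not matched for peak width, and the marked coding genes had wider peaks (median 1650 bp). The part of peak width in this difference was not tested. The peaks of PCDHB2 began 30 and 14 bp past the start and ended 947 and 889 bp past it. Those of PCDHGC3 began 27 bp past the start in both replicates and ended 984 and 885 bp past it. Those of PCDHA4 began 14 and 17 bp past the start and ended 216 and 228 bp past it. The first of the 2 replicate 1 peaks at PCDHA12 began 27 bp past the start, and the replicate 2 peak began 171 bp past it. The lone peaks of PCDHB9 and PCDHGB1 also began just past the start, at 8 and 15 bp.

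PCDHAC2 was the exception. Its summits lay before the start, by 168 bp in replicate 1 and 95 bp in replicate 2. Its replicate 1 peak ended 58 bp before the start, and its replicate 2 peak reached 191 bp past it. The summits of the other 5 members lay between 71 bp (PCDHGB7, replicate 1) and 424 bp (PCDHA12, replicate 1) past the start.

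**Figure D4:**
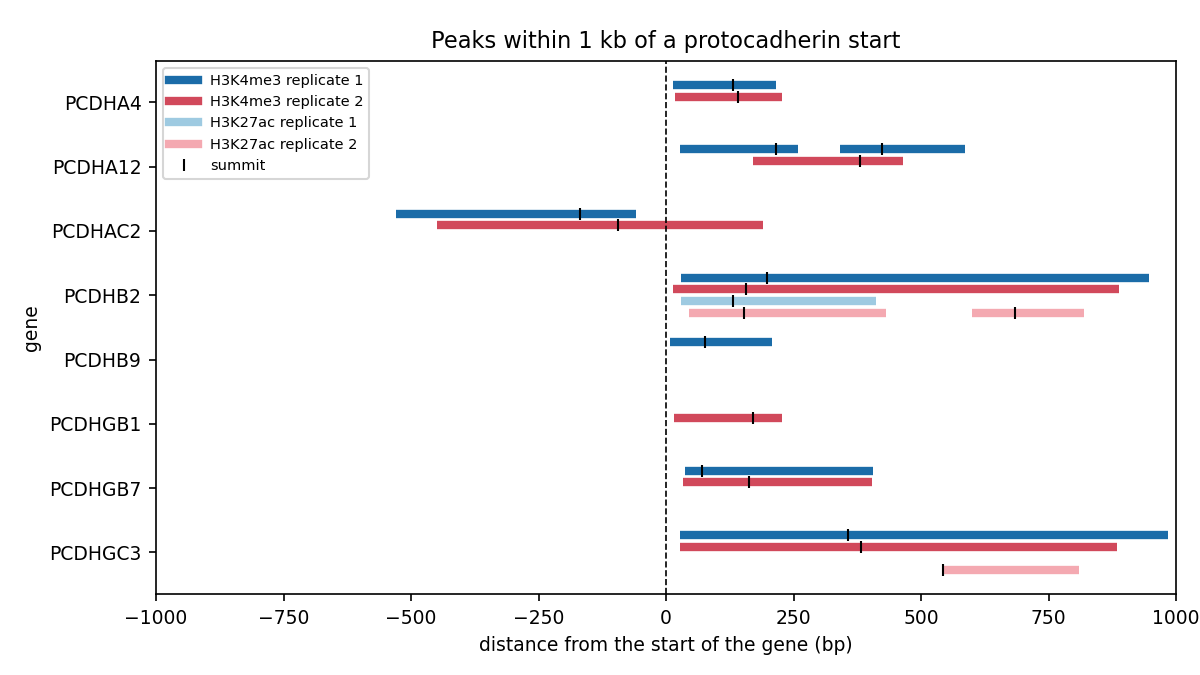
Extent of every peak within 1 kb of a protocadherin start (horizontal axis, bp from the start, with positive values inside the gene) for the 8 genes that had any, H3K4me3 in dark and H3K27ac in light colours, with ticks at summits. The peaks begin 8 bp or more past the start at every gene but PCDHAC2, whose summits lie 168 and 95 bp before it.

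No H3K27ac peak was called at most of these starts. Of the 6 members with H3K4me3 in both replicates, 4 (PCDHA4, PCDHA12, PCDHAC2 and PCDHGB7) had no H3K27ac peak in either replicate, which was so for 17.6% of the marked coding genes. PCDHB2 had it in both replicates, as did 73.9% of the marked coding genes, and PCDHGC3 in replicate 2. The mean H3K27ac fold enrichment of PCDHB2, 2.97 ± 0.320 (SD, n = 2), was above that of 4.59% of the 7065 coding genes with H3K27ac in both replicates. The 2 members with the strongest H3K4me3 were also those with any H3K27ac, and the part of peak strength in the missing H3K27ac calls was not tested.

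Member promoters were poorer in G and C than most coding promoters. The median GC content was 39.7% over the 47 members with an entry and 62.7% over 15812 coding promoters. The median number of CpG dinucleotides in the 300-base window was 7 against 22, 27 in the coding promoters marked with H3K4me3 in both replicates and 7 in the coding promoters not so marked. The median GC content of the last group was 56.0%, above that of the members. Among the marked members, PCDHAC2 (63.0% GC, 15 CpG) and PCDHGC3 (59.0%, 18 CpG) were GC-rich. PCDHA4 (40.3%, 5 CpG), PCDHA12 (36.0%, 9 CpG), PCDHB2 (45.3%, 10 CpG) and PCDHGB7 (47.7%, 11 CpG) were not. The 2 promoters richest in CpG, PCDHAC1 (66.0%, 27 CpG) and PCDHGC4 (60.7%, 23 CpG), had no mark peak. The part of base composition in the low share of marked members was not tested.

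BRG1, NRF2 and SMARCC1 had no peak at any of the 53 starts, nor anywhere in the 727 kb from the start of PCDHA1 to the shared end of the gamma genes. These counts cannot set the members apart, because called peaks of the factors are rare at promoters. All SMARCC1 peaks (600 and 572) had a −log10 q of 0. So did 2418 of 3213 and 2844 of 6610 BRG1 peaks and 845 of 1538 and 577 of 919 NRF2 peaks, by replicate. Depth is not known, so few calls cannot be read as little binding. Both replicates had BRG1 at 0.512% of coding genes, NRF2 at 0.183% and SMARCC1 at 0.259%, shares that would give 0.271, 0.0970 and 0.137 genes among 53. In either replicate the shares were 3.21%, 0.929% and 1.02%. The nearest BRG1 peak before the clusters lay 566 kb away in replicate 1 and 492 kb in replicate 2, and the nearest after them 738 and 850 kb. NRF2 peaks lay closer on the side of PCDHA1, at 60.1 and 66.9 kb.

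Along the clusters, H3K4me3 formed 11 regions found in both replicates, 6 at member starts and 5 elsewhere. A pair of those 5 (141319876 to 141320842 and 141320915 to 141321514) lay at TAF7, a general transcription factor gene between the beta and gamma clusters. The first region covered the 5′ end of TAF7 and the second lay 131 bp before it. The first had fold enrichments of 11.3 and 8.68 and the second 9.82 and 8.52, above every member but PCDHB2, whose 10.4 and 7.03 overlapped them. TAF7 had H3K27ac in replicate 2 alone, at 3.58. SLC25A2, a mitochondrial carrier gene also between these clusters, had no mark peak at either end in any library.

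The other 3 regions lay between genes. One, from 141326252 to 141326665, had H3K4me3 of 4.77 in both replicates (−log10 q of 5.2 in both) and lay 3849 bp before the start of PCDHGA1. An H3K27ac peak was called inside it in replicate 1 alone, at 2.48 (−log10 q of 0.0568). Another, from 141040178 to 141040860, had 4.02 and 3.37 and began 27831 bp past the shared end of the alpha genes. The alpha cluster is known to have an enhancer beyond its constant exons, named HS5-1, but no position for it was at hand, so a match was not tested. The last, from 141084697 to 141085050, had 3.46 and 3.13 and lay 9565 bp before PCDHB2.

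Outside PCDHB2, H3K27ac in both replicates was found near the far ends of the alpha and gamma clusters, away from every isoform's start. H3K4me1 in both replicates was found near the far end of the gamma cluster only. H3K27ac had 3 such regions in all, 1 at PCDHB2 and 2 others. One of these, from 141001750 to 141002014, lay inside the alpha constant region (annotated as PCDHACT), with 2.48 and 3.58 and a −log10 q of 0.0568 and 0.962. An H3K4me3 peak was called inside it in replicate 1 alone, at 3.18 (−log10 q of 0.665). The other, from 141508955 to 141509510, had 4.09 and 3.60 (−log10 q of 1.56 and 1.31), the highest H3K27ac of the clusters, and lay 3465 bp before the shared end of the gamma genes. Both H3K4me1 regions were there too. The first, from 141507516 to 141508784, had 3.83 and 4.05 (−log10 q of 0.94 and 1.02). The second, from 141508967 to 141509538, had 3.70 and 3.69 (−log10 q of 0.94 and 0.7) and overlapped the H3K27ac region. Over all called peaks, this end of the gamma genes was the only place in the clusters where both replicates of both marks met, and no H3K4me3 peak was called there. At −log10 q of at least 1.3 its H3K27ac region was the 1 left of 3, both H3K4me1 regions were lost, and the marks no longer met. At 5 no H3K27ac region was left. Counted over whole spans plus 1 kb, 36 of 53 members held H3K4me3 in both replicates, against 62.4% of all coding genes. For H3K27ac there were 38 of 53, against 51.0%, and for H3K4me1 22 of 53, against 27.5%. Each member share was above that of all coding genes. Alpha spans share their far end, as do gamma spans, so a single region was counted for many members. The 22 with H3K4me1 were the 22 gamma genes. The 38 with H3K27ac were the 15 alpha genes, the 22 gamma genes and PCDHB2. The nearest H3K4me1 peak beyond lay 1.44 kb past the shared end of the gamma genes in both replicates. The nearest H3K27ac peak beyond lay 1.68 kb past it in replicate 1 and 1.5 kb in replicate 2. Both marks were thus also called just outside the clusters. The H3K27ac region at the gamma end lay 5511 bp from the near end of DIAPH1, the next coding gene.

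**Figure D5:**
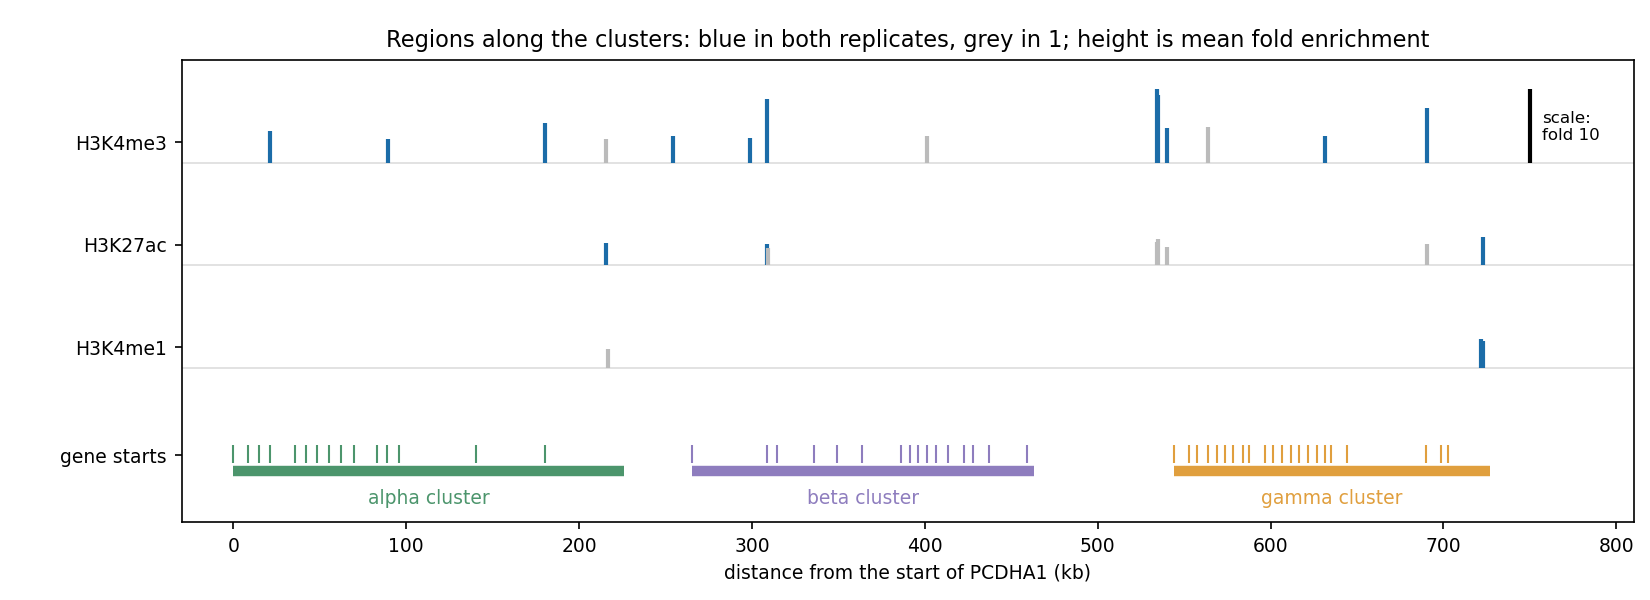
Regions with a peak along the 727 kb of the clusters (horizontal axis, kb from the start of PCDHA1), 1 row for each mark, in blue where both replicates had a peak and in grey where 1 did. Bar height is the mean fold enrichment (black bar, 10), ticks in the lowest row are gene starts and thick lines the extent of each cluster. H3K4me3 is spread over 11 blue regions, and the 2 blue H3K4me1 regions lie at the end of the gamma cluster.

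The 4 nearest coding genes outside the clusters all had H3K4me3 in both replicates. Before PCDHA1, HARS2, a histidyl-tRNA synthetase gene, had 9.56 and 11.8, and ZMAT2, an RNA splicing gene, had 6.52 and 5.82. After the gamma genes, DIAPH1, an actin-nucleating formin gene, had 13.9 and 15.9, and HDAC3, a histone deacetylase gene, had 20.3 and 21.0. HARS2, DIAPH1 and HDAC3 also had H3K27ac in both replicates, and ZMAT2 had it in neither. The values of ZMAT2 lay below both replicates of PCDHB2.

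Protocadherins outside the clusters, which do not share exons, mostly had no called peak either. At either end of the gene, 3 of 12 had H3K4me3 in both replicates (25%) and 2 had H3K27ac (16.7%), against 57.6% and 43.8% of all coding genes. PCDH7 had H3K4me3 of 16.2 and 18.5, PCDH9 11.9 and 13.1 and PCDH18 4.77 and 7.54. PCDH7 and PCDH9 were thus above every clustered member in both replicates, while PCDH18 overlapped them. PCDH8, PCDH10, PCDH11X, PCDH12, PCDH15, PCDH17 and PCDH20 had no mark peak at either end in any library.

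Genes known to control the clusters all had an H3K4me3 peak. All 14 listed genes, among them CTCF, the cohesin subunits and loaders, and the DNA methyltransferases, had H3K4me3 at an end of the gene in both replicates, against 57.6% of all coding genes at either end. Of the 14, 13 had H3K27ac in both replicates, against 43.8%. The exception was SETDB1, which at its 5′ end had it in replicate 1 alone, at 2.36. The strongest were WAPL, which unloads cohesin, at 55.8 and 53.7, RAD21, a cohesin subunit, at 52.8 and 42.5, and SMC3, another subunit, at 39.0 and 40.9. CTCF itself had 12.9 and 21.5.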

How the data were processed

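Peak lists of 12 CUT&RUN libraries were used, 2 replicates for each of 6 targets, grouped by the target and replicate number in the titles. Per the submitters' processing notes, the tools were MACS2 2.2.7.1, Picard 2.23.9, SAMtools 1.9 and Bowtie2 2.4.1, on GRCh38, with no role stated. Settings, the control used for calling and the treatment of reads that map to several paralogs are not given in the sources used here. The deposited values are a fold enrichment ratio over the peak caller's background, a −log10 p and a −log10 q for each peak, and a peak score that was not used.

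From these, peaks meeting the span start ± 1 kb by at least 1 bp were counted, and the highest fold enrichment was kept without rescaling. Chromosomes 1 to 22 and X were used. The comparison set was 15818 coding genes: the 15812 whose strand, and so 5′ end, is in the RefSeq GRCh38.p14 promoter table, plus 6 members without an entry. Gene lists were taken at either span end, a choice made after seeing that the promoter table lacked many listed genes. The 10-letter run was chosen over all members and, after seeing the data, for each cluster, as was the count of promoters holding it by H3K4me3 call. Regions are merged peaks of both replicates. Overlap counting was tested on simulated data. The members and lists were chosen with earlier results of these data known. Named are all members with a peak in both replicates, neighbouring coding genes, and the 3 listed genes with the highest H3K4me3 or without a mark. PCDHB3, PCDHAC1, PCDHGC4, PCDHGC5 and CTCF were named after their values were seen. Python 3.11.15, NumPy 2.4.6, pandas 2.3.3 and matplotlib 3.10.9 were used. Alternatives were other windows, overlaps and thresholds, and each replicate left out.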

Additional observations from a re-analysis of the deposited data

How the results depend on the processing

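The 6 H3K4me3 starts were the same genes with windows of 500 bp and 2 kb, with summits in the window and with 200 bp of overlap. At −log10 q of at least 1.3, 4 remained (PCDHA4, PCDHAC2, PCDHB2 and PCDHGC3), against 58.4% of coding genes. At −log10 q of at least 5, 2 remained (PCDHB2 and PCDHGC3), against 54.6%. A peak in either replicate gave 8, against 60.7%, and leaving out a replicate gave 7 each time, against 60.2% without replicate 1 and 59.7% without replicate 2. The single H3K27ac start became 0 at both thresholds on q (against 33.5% and 5.99%) and 2 with a peak in either replicate (against 50%), and it ranged from 1 to 2 with a replicate left out (2 without replicate 1, against 47.9%, and 1 without replicate 2, against 46.8%). Whole spans gave 36 H3K4me3, 38 H3K27ac and 22 H3K4me1 genes of 53, against 62.4%, 51.0% and 27.5%. Each member share was above that of all coding genes. Alpha spans share their far end, as do gamma spans, so a single region was counted for many members. The H3K4me1 count was otherwise 0, and the counts of BRG1, NRF2 and SMARCC1 starts were 0 in all 10 settings. Regions along the clusters fell at −log10 q of at least 1.3 and 5 from 11 to 7 and 5 for H3K4me3, from 3 to 1 and 0 for H3K27ac, and from 2 to 0 and 0 for H3K4me1. Without replicate 1 there were 7 H3K27ac regions. No paired analysis was possible because the results come from no test. Depth and the treatment of reads that map to several paralogs are unknown, so the absence of a peak cannot be read as absence of the mark.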
